A study of Homo sapiens with 12 samples.

Results

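The comparison described here is the late step of an induced PRMT5 guide in one lymphoma line: OCI-Ly7 cells after 6 days of doxycycline against OCI-Ly7 cells after 3 days. It uses 4 of the 12 libraries of the study, 2 per day, and 11016 of the 25369 gene rows of the OCI-Ly7 table, those with a mean FPKM (fragments per kilobase of transcript, scaled to the library's total) of at least 1 over the 6 OCI-Ly7 libraries. The study sequenced RNA from 2 human diffuse large B cell lymphoma lines, OCI-Ly7 and TMD8, each expressing a doxycycline-inducible single guide RNA against PRMT5. The day 0, day 3 and day 6 groups received 20 ng/ml doxycycline for 0, 3 or 6 days and carried the same guide. By their labels they differ in the length of induction, and time since induction and time in culture cannot be told apart. No group with another guide or with doxycycline but no guide is used here, and the labels name neither the nuclease nor whether the 2 libraries of a day came from separate cultures. P-values therefore measure the spread between these libraries, which may be technical. Titles, characteristics and design text give these days and were followed, although the text of the treatment protocol lists different ones.

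OCI-Ly7 is an established line of the germinal centre B cell type of diffuse large B cell lymphoma. PRMT5 is the main enzyme that places symmetric dimethyl marks on arginines of histones and of the Sm proteins of the spliceosome, and it works in a complex with WDR77 and with adaptors such as RIOK1, CLNS1A and COPRS that choose its substrates. In B cell lymphoma PRMT5 is known for its links to MYC, to cell cycle genes and to faithful splicing. The transcript level of a gene targeted by a guide does not measure how much of its protein was left.

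The libraries carried the transcripts of B cells. All 10 B cell identity genes (among them MS4A1, CD79A, CD79B, PAX5, EBF1, CD22, CD74, BLNK, POU2AF1) reached a mean FPKM of at least 1, with summed levels of 2631 and 2534 FPKM at day 6 and 1996 and 1850 FPKM at day 3. Of the germinal centre genes, BCL6 had 57.2 and 60.2 FPKM at day 6 and 49.3 and 42.5 FPKM at day 3, while SERPINA9 and P2RY8 were listed at 0 in each of these libraries. The T and NK cell markers summed to 3.17 and 3.36 FPKM at day 6 and 3.39 and 3.28 FPKM at day 3, with CD3D, CD3E, CD3G, CD2, GNLY and KLRD1 (6 of 11 rows) listed at 0. The myeloid markers summed to 5.75 and 5.78 FPKM at day 6 and 3.74 and 1.26 FPKM at day 3, with LYZ, ITGAM, S100A8, S100A9, MPO and CD163 (6 of 11) at 0, and the stromal and epithelial markers to 14.6 and 14.0 FPKM at day 6 and 12.3 and 12.2 FPKM at day 3, with 4 of 12 at 0. The sums of the myeloid and of the stromal and epithelial markers were thus higher at day 6, and their part in the results was not tested. In RNA from a bulk culture, fewer cells of a kind and less RNA per cell cannot be told apart. The absolute depth is not given in the sources used here. Relative to the first day 0 library, depth read from the low values was 0.81 and 0.77 at day 6 and 0.91 and 0.88 at day 3. The 45S ribosomal precursor took 21.6% and 27% of the signal at day 6 and 19.1% and 27.5% at day 3, so that the days overlapped.

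Over all genes tested, the median absolute log2 change between day 6 and day 3 was 0.21, against a median absolute difference of 0.14 between the 2 libraries of day 6 and 0.17 between the 2 of day 3. With limma on log2(FPKM + 1), 24 genes passed an adjusted p of 0.05 on FPKM as deposited, or 0.218% of the genes tested. Of these, 11 rose (0.0999%) and 13 fell (0.118%). Median-ratio scaling sets the libraries to a common level by the ratio of a typical gene to its average over libraries. With it 964 genes passed (8.75%), 466 higher (4.23%) and 498 lower (4.52%), and the same 24 genes were among them. The 964 depended on having all 6 libraries: leaving out any 1 of them left between 21 and 51 genes past the threshold after scaling, and between 27 and 48 as deposited. Changes that passed only after scaling are therefore given below as such, with the libraries' own values. The 61 of these genes refitted without each library in turn kept their sign in every fit, but did not keep their pass. At an unadjusted p under 0.05, 1335 genes were higher (12.1%) and 1560 lower (14.2%) as deposited. The day 6 libraries lay above both day 3 libraries in both scalings for 2719 genes (24.7%) and below both for 3059 (27.8%), or 52.5% of genes in either direction. The counts given for lists below stand against these shares of all genes.

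**Figure D1:**
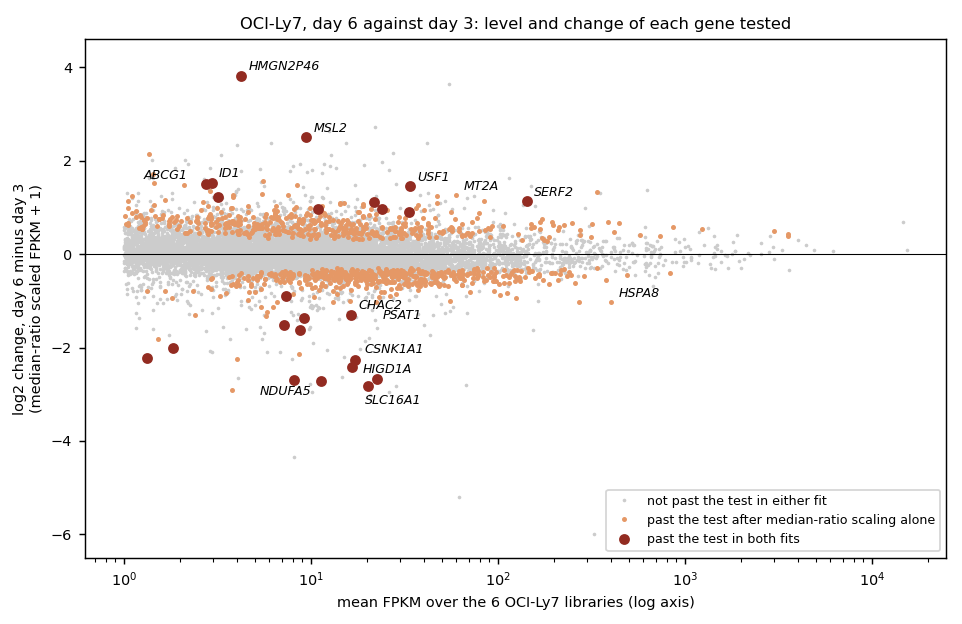
Each point is 1 of the 11016 genes tested, by its mean FPKM over the 6 OCI-Ly7 libraries (log axis) and its log2 change from day 3 to day 6 after median-ratio scaling (day 6 minus day 3). Dark points are the 24 genes that passed in both fits and orange points those that passed after scaling alone; MSL2 and HMGN2P46 stand highest among the 24 and SLC16A1 lowest.

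PRMT5 itself was lower at day 6 than at day 3 in both pairs of libraries, without passing the test. It had 37.9 and 46.9 FPKM at day 0, 29.3 and 32.1 FPKM at day 3 and 20.96 and 19.2 FPKM at day 6, so the 3 days did not overlap. The log2 change from day 3 to day 6 was -0.59 (SE 0.13, adjusted p = 0.0931; -0.57 after scaling, adjusted p = 0.0636). WDR77, the obligate partner of PRMT5, had 26.2 and 25.7 FPKM at day 6 and 36.3 and 32.7 FPKM at day 3, and fell after scaling (log2 change -0.37, adjusted p = 0.0386). RIOK1, an adaptor that competes with CLNS1A for PRMT5, had 19.1 and 17.0 FPKM at day 6 and 26.1 and 22.2 FPKM at day 3, and also fell after scaling (-0.38, adjusted p = 0.0451). CLNS1A, the adaptor for Sm proteins, had a log2 difference of -0.25 (adjusted p = 0.233) and COPRS, the adaptor for histones, one of -0.05 (adjusted p = 0.862). None of the 5 genes of the complex passed as deposited with limma, 3 of 5 were lower at an unadjusted p under 0.05, and the median log2 difference of the 5 was -0.40 against -0.01 over all genes. In TMD8 PRMT5 had 49.6 and 54.7 FPKM at day 6 and 41.3 and 42.0 FPKM at day 3, and the late step of OCI-Ly7 minus that of TMD8 was -0.91 (SE 0.15, adjusted p = 0.0113) in a limma fit over all 12 libraries and 9688 genes. In that fit 1435 genes passed (14.8%), 681 with a higher late step in OCI-Ly7 (7.03%) and 754 with a lower one (7.78%). The count was 295 without the second TMD8 day 3 library, 581 without the first, and 820 and 682 without the first and the second TMD8 day 6 library. PRMT5 passed in all 8 fits that left out 1 library of day 3 or day 6 (adjusted p up to 0.045). Of 8 genes of other arginine methyltransferases tested none passed in either fit, and 1 was lower at an unadjusted p under 0.05 (PRMT3, 7.68 and 7.61 FPKM at day 6 against 10.8 and 10.5 FPKM at day 3).

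ID1, which encodes an inhibitor that binds E proteins and keeps them off DNA, rose. It had 2.07 and 2.31 FPKM at day 0, 1.14 and 1.37 FPKM at day 3 and 5.42 and 5.35 FPKM at day 6. Both day 6 libraries thus stood above every earlier one, and day 3 was the lowest of the 3 days. The log2 change was 1.50 (SE 0.11, adjusted p = 0.0133; 1.53 after scaling, adjusted p = 0.0221), and it no longer passed as deposited when either day 6 library was left out (adjusted p up to 0.0593). After scaling it passed in 2 of 6 such fits (adjusted p up to 0.0775). In TMD8 ID1 had 2.42 and 2.55 FPKM at day 6 and 4.68 and 4.13 FPKM at day 3, and the late steps of the lines differed by 2.14 (adjusted p = 0.000309). ID3, its close relative and a gene often mutated in Burkitt lymphoma, had 34.8 and 31.3 FPKM at day 6 and 20.1 and 14.5 FPKM at day 3. Its difference of 0.91 passed after scaling alone (adjusted p = 0.087 as deposited, 0.0332 scaled). ID2 had 124 and 109 FPKM at day 6 and 132 and 114 FPKM at day 3, and the libraries of the 2 days overlapped (-0.08, adjusted p = 0.723). TCF3, the E protein that drives B cell programmes, had 55.4 and 47.1 FPKM at day 6 and 42.8 and 33.0 FPKM at day 3, a difference of 0.43 that passed in neither fit (adjusted p = 0.16 and 0.0568). Of 6 genes of E proteins and ID inhibitors tested, 1 passed as deposited and 2 after scaling, each higher at day 6. ID1 is induced by bone morphogenetic proteins in many cell types, and whether they acted here was not tested. None of the 15 genes of BMP and TGF-beta signalling tested passed with limma in either fit. As deposited, 1 of them was lower at an unadjusted p under 0.05, against 14.2% of all genes. SMAD1, SMAD6, ACVR1 and BAMBI were among the genes of this list below the filter.

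**Figure D2:**
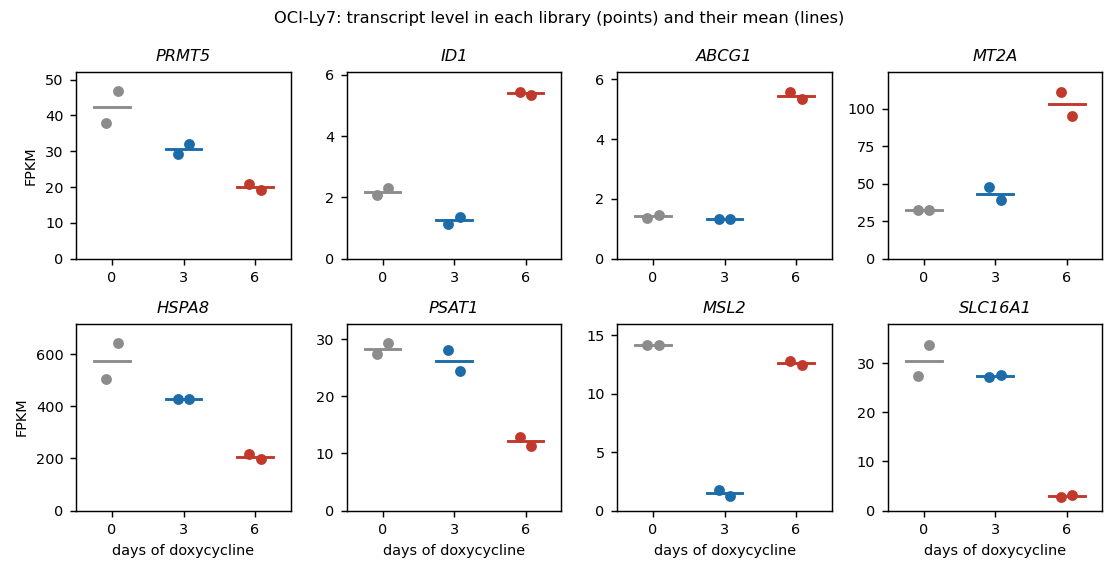
FPKM of 8 genes in each OCI-Ly7 library at 0, 3 and 6 days of doxycycline (x axis), with points for libraries and short lines for the mean of each day. ID1 and ABCG1 stand at 5.33 to 5.57 FPKM at day 6 and under 2.4 at the earlier days, while SLC16A1 lies near 3 FPKM at day 6 and near 27 at day 3.

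ABCG1, a transporter that moves cholesterol out of cells and a classical target of the liver X receptors, rose as well. It had 1.35 and 1.47 FPKM at day 0, 1.32 and 1.34 FPKM at day 3 and 5.57 and 5.33 FPKM at day 6. The level was thus flat over the early days and higher in both day 6 libraries. The log2 change was 1.47 (SE 0.10, adjusted p = 0.0106; 1.50 after scaling, adjusted p = 0.0113), and as deposited it did not pass without the second day 3 library or the first day 6 library (adjusted p up to 0.0537). After scaling it passed in 3 of 6 fits without 1 library (adjusted p up to 0.0583). ABCA1, the other liver X receptor target among the cholesterol exporters, was below the filter with 0.133 and 0.130 FPKM at day 6 and 0.0393 and 0.0401 FPKM at day 3. ABCA7, a related lipid transporter, had 24.4 and 22.6 FPKM at day 6 and 12.3 and 9.08 FPKM at day 3, and NPC2, which carries cholesterol in lysosomes, had 31.1 and 29.3 FPKM at day 6 and 22.3 and 21.1 FPKM at day 3. Both passed after scaling alone (adjusted p = 0.0337 for ABCA7 and 0.0356 for NPC2). SCD, the fatty acid desaturase, was lower at day 6, with 16.6 and 17.2 FPKM at day 6 and 30.8 and 28.4 FPKM at day 3 (-0.78, adjusted p = 0.0784, and 0.0332 after scaling). Of the 9 genes tested in this list, 1 was higher as deposited, and 3 were higher and 1 lower after scaling.

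Genes of cholesterol synthesis and its control stood lower at day 6 as a group, with no single one past the test as deposited. Of 23 genes tested, 20 were lower on average at day 6 and the median log2 difference was -0.51, against -0.01 over all genes. With limma 0 of 23 passed as deposited, and 14 were lower and 1 higher at an unadjusted p under 0.05 (14.2% and 12.1% over all genes). The libraries of 18 did not overlap between the days with day 6 lower (27.8% over all genes). After scaling 7 were lower and 1 higher. The late step in TMD8 went the same way, with 22 of the 23 lower on average at day 6. The median there was -0.47, against -0.05 over all genes tested in both lines. SREBF2, the transcription factor that switches the pathway on, had 7.54 and 6.39 FPKM at day 6 and 15.2 and 13.1 FPKM at day 3, a difference of -0.93 (adjusted p = 0.0798, and 0.0332 after scaling). IDI1, which makes the isoprenoid building block, had 31.5 and 28.2 FPKM at day 6 and 49.7 and 46.0 FPKM at day 3 (-0.66, adjusted p = 0.087, and 0.0332 after scaling). FDFT1, which commits isoprenoids to sterols, had a difference of -0.67 and MSMO1, a later demethylating enzyme, one of -0.75 (adjusted p = 0.0356 and 0.0386 after scaling). The exception past the test after scaling was TM7SF2, a sterol reductase, with 17.9 and 17.3 FPKM at day 6 and 13.1 and 11.8 FPKM at day 3 (0.47, adjusted p = 0.0355). Without any 1 library 0 of the 23 passed in either fit, and the median stayed between -0.60 and -0.41 as deposited.

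Metallothioneins, small cysteine-rich proteins that bind zinc and copper, had higher levels at day 6. MT2A had 32.5 and 32.5 FPKM at day 0, 47.8 and 39.0 FPKM at day 3 and 111 and 95.1 FPKM at day 6, so each later day stood above the one before. Its log2 difference was 1.23 (SE 0.14, adjusted p = 0.0548; 1.26 after scaling, adjusted p = 0.0158). MT1X had 26.4 and 27.0 FPKM at day 6 and 18.8 and 12.4 FPKM at day 3 (0.77, adjusted p = 0.1, and 0.0441 after scaling). MT1G had 3.49 and 3.12 FPKM at day 6 and was listed at 0 in both day 3 libraries. It passed after scaling (adjusted p = 0.0462). Its day 6 values alone are enough to carry the row past the filter, so this pass is no support for it. These genes are near-identical copies, and how fragments shared between them were divided is not given in the sources used here. Their activator MTF1 had 1.19 and 0.990 FPKM at day 6 and 1.63 and 1.43 FPKM at day 3, a difference of -0.27 that did not pass (adjusted p = 0.228). The zinc transporters SLC30A1 and SLC39A10 passed in neither fit. MTF1 acts through metal response elements, and the promoters of the 2 genes with the highest levels are shown because they hold several of these elements, with the core TGCNCNC on either strand in capitals. The sequences are RefSeq, on GRCh38.p14, plus strand, from 250 bases before to 50 after the start of the gene, at chr16:56608334-56608633 for MT2A and chr16:56682220-56682519 for MT1X.
MT2A: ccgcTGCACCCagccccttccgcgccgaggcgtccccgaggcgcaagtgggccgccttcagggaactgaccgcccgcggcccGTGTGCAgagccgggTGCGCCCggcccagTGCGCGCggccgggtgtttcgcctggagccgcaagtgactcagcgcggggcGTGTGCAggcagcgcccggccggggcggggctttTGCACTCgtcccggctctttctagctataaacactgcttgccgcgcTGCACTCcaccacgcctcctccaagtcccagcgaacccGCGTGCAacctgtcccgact
MT1X: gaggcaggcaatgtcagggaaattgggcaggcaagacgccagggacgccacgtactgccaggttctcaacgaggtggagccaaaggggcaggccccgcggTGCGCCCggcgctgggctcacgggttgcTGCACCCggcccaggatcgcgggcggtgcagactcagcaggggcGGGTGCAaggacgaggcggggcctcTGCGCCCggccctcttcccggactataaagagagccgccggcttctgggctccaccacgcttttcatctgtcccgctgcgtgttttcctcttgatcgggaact
The MT2A window holds 8 cores and the MT1X window 4, with none overlapping. The core is short: 55.2% of all 27305 promoter windows of this length hold at least 1, and so do 4 of the 5 windows matched among the 6 genes tested in this list. A match is a description of the letters, not a site shown to be used.

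Chaperones of the heat shock response were lower at day 6. HSPA8, the constitutive cytosolic HSP70 chaperone, had 504 and 641 FPKM at day 0, 429 and 427 FPKM at day 3 and 216 and 197 FPKM at day 6. The log2 difference of -1.05 (SE 0.13) passed after scaling (adjusted p = 0.0337) and not as deposited (adjusted p = 0.069). HSPD1, the mitochondrial HSP60 chaperonin, had 132 and 116 FPKM at day 6 and 199 and 195 FPKM at day 3 (-0.67, adjusted p = 0.087, and 0.0397 after scaling). HSPA4, an HSP110-type exchange factor, had a difference of -0.46 and FKBP4, an HSP90 co-chaperone, one of -0.43 (adjusted p = 0.0356 and 0.0382 after scaling). HSPH1, another HSP110, had 7.12 and 7.25 FPKM at day 6 and 28.7 and 13.8 FPKM at day 3, with a wide spread at day 3, and passed in neither fit (-1.36, adjusted p = 0.102). The small heat shock protein HSPB1 was not lower, with 126 and 109 FPKM at day 6 and 95.6 and 72.4 FPKM at day 3 (0.49, adjusted p = 0.154). Of 15 genes of the heat shock response tested, 12 were lower on average at day 6, with a median of -0.34. None passed as deposited with limma, 8 were lower and 1 higher at an unadjusted p under 0.05, and 5 were lower after scaling.

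In TMD8 the heat shock genes were higher at day 6 than at day 3. There HSPA8 had 838 and 956 FPKM at day 6 and 513 and 498 FPKM at day 3. The difference of the late step, OCI-Ly7 minus TMD8, was -1.87 for HSPA8 (SE 0.17, adjusted p = 0.00274). Of the 15 heat shock genes, 11 had a lower late step in OCI-Ly7 and 0 a higher one past the test (7.78% and 7.03% over all genes). The median log2 difference of the 15 was -0.34 in OCI-Ly7 and 0.56 in TMD8, against -0.03 and -0.05 over all genes tested in both lines, and all 15 were higher on average at day 6 in TMD8. FKBP4 differed by -1.04 (adjusted p = 0.00535), HSPD1 by -1.02 (adjusted p = 0.00762) and HSPH1 by -1.92 (adjusted p = 0.0203). The HSPH1 call was lost in 3 of the 8 fits that left out 1 library, those without either TMD8 day 3 library or the second TMD8 day 6 library, with values from -2.42 to -1.42 and an adjusted p up to 0.0687. The difference for HSPA8 lay between -1.97 and -1.78 and passed in all 8 fits that left out 1 library of day 3 or day 6. The HSPA8 promoter is shown for its heat shock elements, the inverted repeat GAANNTTC, in capitals. It is RefSeq sequence on GRCh38.p14, chr11:123062087-123062386, written 5′ to 3′ on the minus strand, on which the gene lies.
HSPA8: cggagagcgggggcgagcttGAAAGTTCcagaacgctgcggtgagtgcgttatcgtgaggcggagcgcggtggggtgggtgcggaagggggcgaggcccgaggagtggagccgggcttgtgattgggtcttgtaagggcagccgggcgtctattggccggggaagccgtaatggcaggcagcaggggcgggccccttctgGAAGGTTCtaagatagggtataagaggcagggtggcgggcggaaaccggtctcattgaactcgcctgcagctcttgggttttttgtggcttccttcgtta
The window holds 2 elements, the nearer of them beginning 50 bases before the start of the gene. Of 14 heat shock genes matched to a promoter, 6 hold the element (42.9%), against 6.87% of all promoter windows. These 6 are HSPA1A, HSPA1B, HSPA8, DNAJA1, HSPB1 and CHORDC1, and HSPB1 was not lower at day 6.

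**Figure D3:**
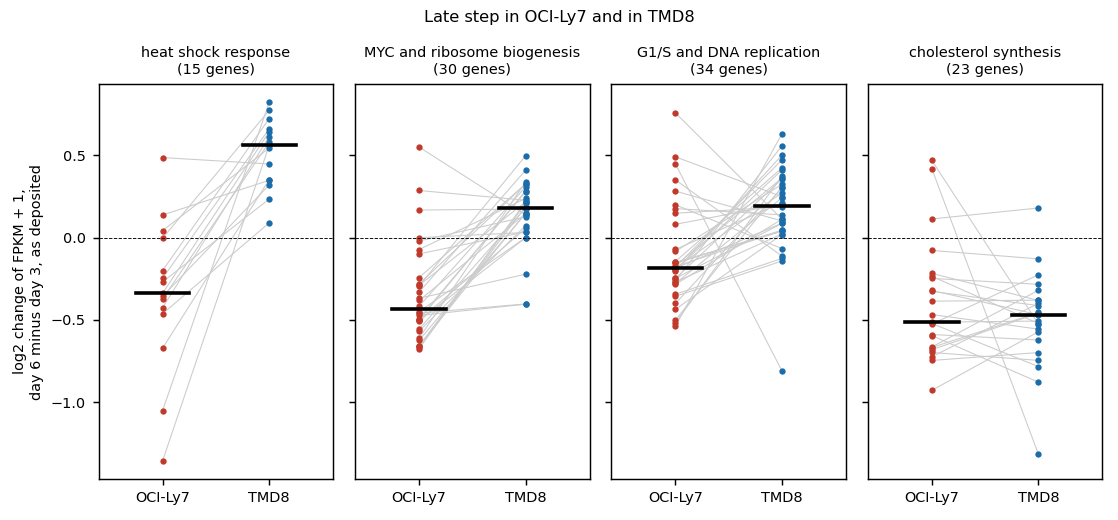
Log2 change from day 3 to day 6 (day 6 minus day 3, FPKM + 1 as deposited) of each gene of 4 lists in OCI-Ly7 and in TMD8, with thin lines joining the same gene and thick lines at the medians. Heat shock genes have a median of -0.34 in OCI-Ly7 and 0.56 in TMD8, while cholesterol synthesis genes have medians of -0.51 and -0.47.

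Genes of ribosome biogenesis, which MYC is known to drive, had lower levels at day 6. Of 30 tested, 26 were lower on average at day 6 and the median log2 difference was -0.43. None passed as deposited with limma, 19 were lower and 0 higher at an unadjusted p under 0.05, and 13 were lower and 0 higher after scaling. MYC itself had 72.1 and 69.8 FPKM at day 6 and 107 and 89.6 FPKM at day 3 (-0.46, adjusted p = 0.0975, and 0.0356 after scaling). WDR43, a factor of the small subunit processome, had 22.3 and 20.7 FPKM at day 6 and 35.9 and 33.4 FPKM at day 3 (-0.66, adjusted p = 0.0798, and 0.0332 after scaling). MRTO4, which helps assemble the large subunit stalk, had 24.2 and 25.1 FPKM at day 6 and 41.4 and 35.3 FPKM at day 3 (-0.61, adjusted p = 0.087, and 0.0344 after scaling). DKC1, the pseudouridine synthase of H/ACA particles, had a difference of -0.63 and NOLC1, a nucleolar chaperone of such particles, one of -0.68 (adjusted p = 0.0332 after scaling for each). Between day 3 and day 0 the median of the list was -0.17, against -0.12 over all genes. Without any 1 library 0 of the 30 passed in either fit, and the median stayed between -0.50 and -0.33 as deposited. The late step was lower in OCI-Ly7 than in TMD8 for 15 of the 30 and higher for 0 (7.78% and 7.03% over all genes), with medians of -0.43 in OCI-Ly7 and 0.18 in TMD8. MYC was not among these 15, with a late step of -0.46 in OCI-Ly7 and -0.40 in TMD8 (difference -0.06, adjusted p = 0.85). The promoters of WDR43 and MRTO4, which both passed after scaling, are shown for the E-box CACGTG that MYC binds, in capitals (RefSeq, GRCh38.p14, plus strand, chr2:28894417-28894716 and chr1:19251555-19251854).
WDR43: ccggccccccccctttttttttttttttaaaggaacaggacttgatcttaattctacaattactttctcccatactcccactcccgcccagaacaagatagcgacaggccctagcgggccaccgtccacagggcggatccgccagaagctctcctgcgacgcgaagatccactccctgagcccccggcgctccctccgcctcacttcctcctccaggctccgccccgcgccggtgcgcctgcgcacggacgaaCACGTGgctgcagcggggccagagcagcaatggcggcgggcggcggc
MRTO4: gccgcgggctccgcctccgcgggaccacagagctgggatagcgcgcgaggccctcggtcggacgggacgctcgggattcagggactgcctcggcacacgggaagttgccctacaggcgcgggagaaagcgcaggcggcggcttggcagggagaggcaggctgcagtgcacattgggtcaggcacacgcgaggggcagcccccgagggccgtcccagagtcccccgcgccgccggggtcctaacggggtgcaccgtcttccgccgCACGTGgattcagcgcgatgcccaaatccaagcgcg
Each window holds 1 E-box, just after the start of the gene. Of 23 genes of the list matched to a promoter, 8 hold an E-box (34.8%), against 7.43% of all promoter windows. These are FBL, NOP2, RRP9, WDR43, PES1, MRTO4, UTP20 and BYSL, and FBL, with 548 FPKM on average at day 6 and 488 FPKM at day 3, was not lower.

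Several genes of the amino acid response that ATF4 controls were lower at day 6. PSAT1, an enzyme of serine synthesis, had 27.4 and 29.4 FPKM at day 0, 28.1 and 24.4 FPKM at day 3 and 12.9 and 11.3 FPKM at day 6. Its difference of -1.06 (SE 0.12) passed after scaling (adjusted p = 0.0221) and not as deposited (adjusted p = 0.0548). CHAC1, which breaks down glutathione, had 3.05 and 2.00 FPKM at day 6 and 8.32 and 7.205 FPKM at day 3 (-1.33, adjusted p = 0.0752, and 0.0332 after scaling). ASNS, asparagine synthetase, had a difference of -0.50 and WARS, the tryptophan tRNA synthetase, one of -0.55 (adjusted p = 0.0426 and 0.0347 after scaling). Of 25 genes tested, 0 passed as deposited with limma, 10 were lower and 0 higher at an unadjusted p under 0.05, and 6 were lower after scaling, with a median of -0.16. In TMD8 PSAT1 had 66.2 and 59.97 FPKM at day 6 and 62.9 and 58.0 FPKM at day 3, and the late step was lower in OCI-Ly7 by 1.11 on the log2 scale (adjusted p = 0.00597). The CHAC1 promoter is shown for its C/EBP-ATF core TGATGNAA, in capitals (RefSeq, GRCh38.p14, plus strand, chr15:40953221-40953520).
CHAC1: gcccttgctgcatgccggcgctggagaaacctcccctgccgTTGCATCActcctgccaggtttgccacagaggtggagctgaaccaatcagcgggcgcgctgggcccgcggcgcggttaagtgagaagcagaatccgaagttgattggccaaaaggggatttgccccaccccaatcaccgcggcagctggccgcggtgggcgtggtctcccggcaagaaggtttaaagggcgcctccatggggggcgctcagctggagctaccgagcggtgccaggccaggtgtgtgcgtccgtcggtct
Of 18 genes of the list matched to a promoter, 4 hold this core on either strand (22.2%), against 3.67% of all windows: ASNS, CHAC1, SLC3A2 and SLC7A1. Among endoplasmic reticulum chaperones, HSPA5, the HSP70 of that compartment, had 87.5 and 83.8 FPKM at day 6 and 137 and 123 FPKM at day 3 (-0.60, adjusted p = 0.0884, and 0.038 after scaling). Of the 20 tested, 18 were lower on average at day 6 with a median of -0.21, 0 passed as deposited with limma, 6 were lower at an unadjusted p under 0.05, and HSPA5 was the only one past the test after scaling.

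Cell cycle genes had smaller differences. Of 35 genes of G1/S and DNA replication, 25 were lower on average at day 6 with a median of -0.18; with limma none passed as deposited, 9 were lower and 2 higher at an unadjusted p under 0.05, and 4 were lower and 1 higher after scaling. RRM2, a subunit of ribonucleotide reductase, had 108 and 93.9 FPKM at day 6 and 153 and 137 FPKM at day 3 (-0.52, adjusted p = 0.0915, and 0.0362 after scaling). RFC3, a clamp loader subunit, and CCNE2, a cyclin of the G1/S transition, had differences of -0.50 and -0.54 (adjusted p = 0.0337 and 0.0413 after scaling). Of the 34 tested in both lines, 11 had a lower late step in OCI-Ly7 and 1 a higher one (7.78% and 7.03% over all genes). Of 30 genes of G2/M and mitosis the median was -0.15. With limma none passed as deposited, and 7 were lower and 1 higher at an unadjusted p under 0.05 (14.2% and 12.1% over all genes). After scaling 1 was lower and 1 higher (4.52% and 4.23% over all genes). The higher one was PTTG1, the securin (0.29, adjusted p = 0.0487 after scaling). The lower one was MAD2L1, of the spindle checkpoint, with 34.0 and 27.5 FPKM at day 6 and 63.6 and 62.98 FPKM at day 3 (-1.02, adjusted p = 0.0752, and 0.0332 after scaling). CDKN1A, the inhibitor downstream of p53, had 4.48 and 3.43 FPKM at day 6 and 4.59 and 4.03 FPKM at day 3, with overlapping libraries (adjusted p = 0.651). CDKN2A, an inhibitor of CDK4 and CDK6, had 7.76 and 8.95 FPKM at day 0, 20.2 and 17.2 FPKM at day 3 and 31.5 and 21.3 FPKM at day 6, and its late difference of 0.45 did not pass (adjusted p = 0.22). Among splicing genes, whose products include substrates of PRMT5, the Sm protein genes did not pass in either fit. The SR protein genes SRSF3 (122 and 112 FPKM at day 6, 177 and 164 FPKM at day 3) and SRSF5 (68.4 and 67.8 FPKM at day 6, 111 and 95.4 FPKM at day 3) fell after scaling alone (adjusted p = 0.0332 each). Of 34 splicing genes tested, 6 were lower and 1 higher after scaling, with a median of -0.19. HNRNPH1, which binds G-rich RNA, had 195 and 185 FPKM at day 6 and 278 and 249 FPKM at day 3 (-0.47, adjusted p = 0.0332 after scaling).

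Most genes of B cell identity had higher levels at day 6 than at day 3, and genes of signalling went both ways. Of the 10 identity genes 9 were higher on average, MS4A1 being the exception, with a median of 0.31. From day 0 to day 3 their median was -0.20 as deposited, against -0.12 over all genes. CD79A had 292 and 351 FPKM at day 0 and 293 and 280 FPKM at day 6. CD79B had 604 and 749 FPKM at day 0 and 596 and 555 FPKM at day 6, so neither stood above day 0 in both libraries. CD74 (1161 and 1248 FPKM at day 0) and PAX5 (8.05 and 6.87 FPKM at day 0) did. With limma none passed as deposited, 6 were higher at an unadjusted p under 0.05, and 3 were higher after scaling. CD74, the invariant chain of MHC class II, had 1507 and 1459 FPKM at day 6 and 1062 and 1010 FPKM at day 3 (0.52, adjusted p = 0.0853, and 0.0337 after scaling). PAX5, the factor that holds B cell identity, had 11.3 and 10.96 FPKM at day 6 and 7.82 and 7.07 FPKM at day 3 (0.52, adjusted p = 0.0894, and 0.0396 after scaling). TCL1A, a co-activator of AKT found in germinal centre lymphoma, had 263 and 437 FPKM at day 0, 216 and 168 FPKM at day 3 and 522 and 425 FPKM at day 6, so that 1 day 0 library lay between the day 6 libraries (1.30 between day 6 and day 3, adjusted p = 0.0885, and 0.0441 after scaling). It is 1 of 13 germinal centre genes tested, of which 8 were higher and 5 lower on average at day 6, with a median of 0.06. After scaling 2 of the 13 were higher and 1 lower. ELL3, also of that list, had 13.0 and 12.2 FPKM at day 6 and 20.3 and 18.5 FPKM at day 3. In the annotation ELL3 overlaps SERF2, on the opposite strand, which was higher at day 6. The ELL3 values are uncertain while the strand setting is not given. Of 27 genes of B cell receptor signalling, 18 were higher and 9 lower on average at day 6, with a median of 0.19 that ran from 0.02 to 0.23 without each library in turn. None passed as deposited with limma, and 9 were higher and 4 lower at an unadjusted p under 0.05 (12.1% and 14.2% over all genes). After scaling 4 were higher and 1 lower (4.23% and 4.52% over all genes), among them RASGRP3, which activates RAS (0.53), and the adaptor PIK3AP1 (-0.50). The kinase gene BTK had 23.6 and 20.7 FPKM at day 6 and 30.3 and 25.9 FPKM at day 3 and did not pass (adjusted p = 0.17). Of 21 NF-kB targets 14 were higher and 7 lower on average, with a median of 0.28, and EBI3, a cytokine subunit, TRAF1, a signalling adaptor, and CD44, an adhesion receptor, were higher after scaling. EBI3 had 19.9 and 15.5 FPKM at day 6 and 10.2 and 8.30 FPKM at day 3 (0.86, adjusted p = 0.087, and 0.0356 after scaling). ISG15, an interferon-induced ubiquitin-like protein, had 87.8 and 59.2 FPKM at day 6 and 37.4 and 24.3 FPKM at day 3 (1.23, adjusted p = 0.0894, and 0.0413 after scaling), while the 16 interferon response genes tested had a median of 0.06. The fate regulators BCL6 (0.35), IRF4 (-0.30) and PRDM1 (0.23) passed in neither fit (adjusted p = 0.137, 0.157 and 0.257).

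**Figure D4:**
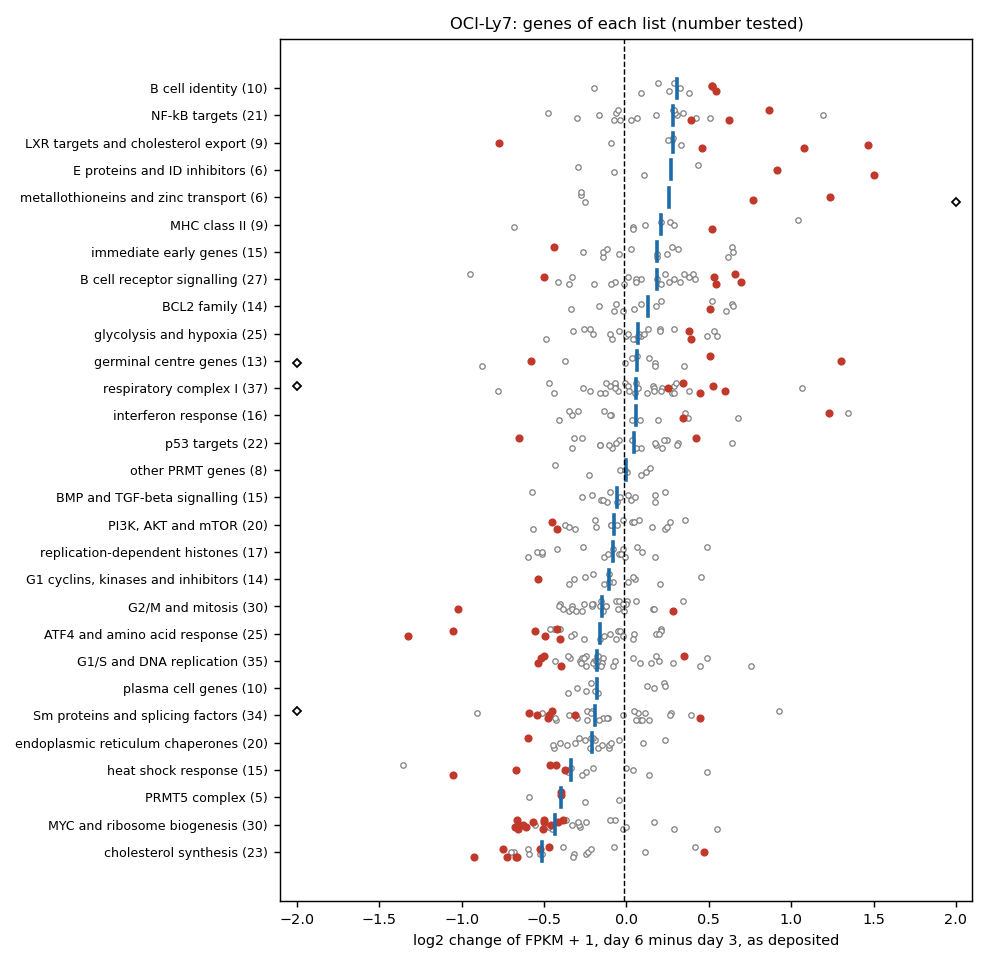
Log2 change of FPKM + 1 from day 3 to day 6 (day 6 minus day 3, as deposited) for the genes of 29 lists, with the number tested in brackets; red points passed after median-ratio scaling, open points did not, blue ticks are medians, the dashed line is the median of all genes, and 4 genes beyond a change of 2 are drawn as diamonds at the edge. Medians run from 0.31 for B cell identity to -0.51 for cholesterol synthesis.

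Several other genes among the 24 had a course in which day 3 stood apart from both other days. MSL2, a ubiquitin ligase of the MSL histone acetyltransferase complex, had 14.1 and 14.2 FPKM at day 0, 1.75 and 1.22 FPKM at day 3 and 12.8 and 12.5 FPKM at day 6 (2.47, adjusted p = 0.00354). USF1, an E-box transcription factor, had 47.4 and 47.4 FPKM at day 0, 14.6 and 13.9 FPKM at day 3 and 40.2 and 40.4 FPKM at day 6 (1.44, adjusted p = 0.00609). HIGD1A, a mitochondrial protein induced by hypoxia, had 8.80 and 8.39 FPKM at day 0, 36.8 and 34.0 FPKM at day 3 and 5.70 and 5.71 FPKM at day 6 (-2.44, adjusted p = 0.00195). PRKAG1, a regulatory subunit of AMPK, had 29.01 and 33.3 FPKM at day 0, 10.04 and 10.96 FPKM at day 3 and 23.8 and 23.7 FPKM at day 6 (1.10, adjusted p = 0.0389). In all, 8 of the 24 came back so far that day 6 differed from day 0 by less than 50% of the late change on the log2 scale. These were MSL2, USF1, PRKAG1, ZNF106, HIGD1A, PCDHGA8, NFS1 and JADE1, of which PCDHGA8 lay near 0 FPKM at days 0 and 6. In MSL2 the late step also differed from that of TMD8 (2.65, adjusted p = 0.000185), where it had 5.39 and 5.89 FPKM at day 6 and 6.63 and 6.39 FPKM at day 3. In 16 of the 24 the early change was under 50% of the late one. Among the 964 genes that passed after scaling, the early change was that small in 901, and 43 came back likewise. All these genes were called on the late change, and day 3 enters both changes. The counts thus describe the calls and are no test of a course. The shares over all genes were not computed. In USF1 the step was shared by TMD8, with 44.0 and 48.2 FPKM at day 6 and 18.3 and 20.6 FPKM at day 3 (difference between the lines 0.23, adjusted p = 0.588).

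Of the genes whose early change was the smaller one, SLC16A1, the lactate and pyruvate transporter MCT1, had 27.3 and 33.7 FPKM at day 0, 27.3 and 27.6 FPKM at day 3 and 2.81 and 3.13 FPKM at day 6 (-2.84, adjusted p = 0.00241). In TMD8 SLC16A1 had 18.2 and 19.8 FPKM at day 6, and its day 3 libraries lay apart at 19.9 and 7.50 FPKM. CSNK1A1, casein kinase 1 alpha, had 24.1 and 25.4 FPKM at day 0, 24.2 and 21.8 FPKM at day 3 and 3.802 and 4.06 FPKM at day 6 (-2.28, adjusted p = 0.00241). In TMD8 CSNK1A1 had 30.2 and 33.6 FPKM at day 6 and 36.0 and 34.1 FPKM at day 3, and the late step differed between the lines (-2.15, adjusted p = 0.000185). NDUFA5, a subunit of respiratory complex I, had 1.92 and 1.40 FPKM at day 6 and 17.0 and 15.7 FPKM at day 3 (-2.71, adjusted p = 0.00325). In TMD8 its libraries of the same day lay far apart, with 1.73 and 14.5 FPKM at day 6 and 13.2 and 2.34 FPKM at day 3. Of 37 genes of complex I tested, NDUFA5 was the only one past the test as deposited, and after scaling 5 were higher, NDUFA1 and NDUFA3 among them (0.45 and 0.60). TUBA4A, an alpha tubulin, had 3.83 and 3.01 FPKM at day 6 and 30.6 and 24.6 FPKM at day 3 (-2.69, adjusted p = 0.00497). Its TMD8 libraries of the same day lay apart as well, with 10.2 and 32.6 FPKM at day 6 and 25.7 and 8.14 FPKM at day 3. The zinc finger gene ZNF226 (-1.54), KHNYN, a cofactor of the antiviral protein ZAP (-1.39), and CHAC2, a glutathione-degrading enzyme (-1.32), fell too. SERF2, a small protein linked to aggregation, had 227 and 204 FPKM at day 6 and 99.9 and 97.9 FPKM at day 3 (1.11, adjusted p = 0.0235), with HYPK, on the same strand and overlapping it in the annotation, at 38.3 and 36.3 FPKM at day 6 and 49.7 and 20.4 FPKM at day 3. ANKRD12 (0.94), MED22 of the Mediator complex (1.20) and UQCRB of respiratory complex III (0.89) rose as well.

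In 2 of the 24 a day was listed at 0, and in PCDHGA8 day 6 lay near it. HMGN2P46 is a row named as a pseudogene of the chromatin protein HMGN2. It had 13.9 and 11.6 FPKM at day 6 and was listed at 0 in each library of days 0 and 3 (adjusted p = 0.00195). LOC100131138 was listed at 0 in both day 6 libraries and had 2.53 and 3.49 FPKM at day 3 (adjusted p = 0.0305). PCDHGA8 is one of a cluster of protocadherins that share their last exons. It had 0.0564 and 0.0102 FPKM at day 0, 4.25 and 3.55 FPKM at day 3 and 0.0542 and 0.0721 FPKM at day 6 (adjusted p = 0.00723). HMGN2P46 and PCDHGA8 thus reached the filter only through the day on which they were high. A pass in the fits below is therefore no support for these rows. Reads of such rows may be shared with near-identical or overlapping genes, and SERF2, SLC16A1, NFS1, CHAC2, TUBA4A, KHNYN, JADE1 and HMGN2P46 each overlap another gene on the opposite strand in the annotation, so these values are uncertain while the strand setting is not given in the sources used here. Without each library in turn, 10 of the 24 passed in all 6 fits: HMGN2P46, MSL2, USF1, SLC16A1, NDUFA5, TUBA4A, HIGD1A, CSNK1A1, PCDHGA8 and NFS1. ANKRD12, KHNYN, JADE1, MED22, PRKAG1 and UQCRB were among the 7 that passed in none of these 6, and all 24 kept their sign.

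Beyond these, the genes with the largest differences that passed after scaling alone were mostly of low level. ELF2, an ETS transcription factor, had 14.5 and 9.80 FPKM at day 6 and 3.80 and 3.60 FPKM at day 3 (1.46, adjusted p = 0.0605, and 0.0332 after scaling). GRIN2D, a subunit of NMDA receptors, had 10.8 and 8.98 FPKM at day 6 and 4.03 and 3.05 FPKM at day 3 (1.27, adjusted p = 0.0776, and 0.0332 after scaling). ISY1, a spliceosome component, had 0.410 and 0.334 FPKM at day 6 and 6.48 and 4.58 FPKM at day 3 (-2.24, adjusted p = 0.087, and 0.0386 after scaling). The antisense row IDH1-AS1 had 2.06 and 2.38 FPKM at day 6 and was listed at 0 in both day 3 libraries, while NPPC, a natriuretic peptide gene, was listed at 0 in both day 6 libraries and had 1.87 and 3.14 FPKM at day 3. CNTFR (1.49), ADAMTS7 (1.33), DDTL (1.24), SLX1B-SULT1A4 (1.55), MIR4321 (1.45) and SNORD31 (-2.14) were likewise past the test after scaling alone. Short RNA rows and read-through rows such as these share sequence with their hosts, and their values are uncertain. KIFC1, TMEFF1 and RAB4B were each listed at 0 in the first or the second day 3 library alone, and none of them passed.

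Some wide differences lay in pairs of rows that share exons. EIF4A1, the helicase of translation initiation, had 540 and 591 FPKM at day 0, 370 and 427 FPKM at day 3, and 39.0 FPKM and a listed 0 at day 6. Its read-through row SENP3-EIF4A1 had 0.303 and 0.328 FPKM at day 0, 57.2 and 1.18 FPKM at day 3 and 128 and 142 FPKM at day 6. Neither row passed the test. The 2 rows summed to 167 and 142 FPKM at day 6 and 427 and 428 FPKM at day 3. FPKM is taken per kilobase of each row's transcript, so such a sum can move with how fragments are divided between rows. Whether the fragments of the pair fell was not tested. For MEF2B, a germinal centre transcription factor, the sum with MEF2BNB-MEF2B was 54.2 and 32.2 FPKM at day 6 and 53.5 and 26.5 FPKM at day 3, with overlapping libraries, although the MEF2B row alone had 1.73 and 0.0835 FPKM at day 6 and 49.5 and 1.98 FPKM at day 3.

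**Figure D5:**
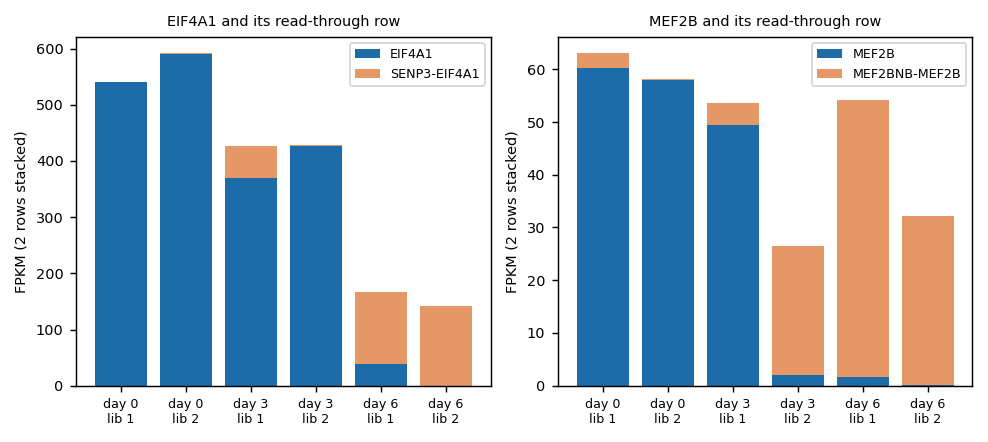
FPKM of EIF4A1 and MEF2B (blue) and of the read-through rows that share their exons (orange), stacked for each of the 6 OCI-Ly7 libraries in order of days 0, 3 and 6. The EIF4A1 pair sums to 142 to 167 FPKM at day 6 and to 427 and 428 FPKM at day 3, while the MEF2B pair overlaps between the days. Such sums can move with how fragments are divided between the rows.

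Of the remaining lists, the 22 p53 targets tested had a median of 0.04, with TRIAP1 lower and GADD45A higher after scaling. The 25 genes of glycolysis and hypoxia had a median of 0.07, the 20 of PI3K, AKT and mTOR -0.08, the 17 replication-dependent histones -0.08 and the 14 of the BCL2 family 0.13. BMF, a pro-apoptotic member of that family, had 102 and 104 FPKM at day 6 and 80.8 and 65.0 FPKM at day 3 (0.50, adjusted p = 0.0356 after scaling). The 9 MHC class II genes tested had a median of 0.21, with 1 higher after scaling. The plasma cell genes, 10 tested, had a median of -0.18, against -0.01 over all genes, with none past the test in either fit, and 1 lower at an unadjusted p under 0.05 with limma as deposited. The 15 immediate early genes had a median of 0.19, which ran from -0.10 to 0.26 without each library in turn. EGR1, which was lower, was the only one of them past the test after scaling, with 8.47 and 7.85 FPKM at day 6 and 11.9 and 10.9 FPKM at day 3 (-0.44, adjusted p = 0.0386).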

How the data were processed

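RNA-seq libraries of OCI-Ly7 and TMD8 were analysed from the FPKM values per gene that the authors deposited, 1 table per line. Per the submitters' processing notes, reads were handled with HISAT and StringTie on hg19, and no source used here gives their versions. How shared reads were counted and whether strand was used are likewise not given. FPKM values are not counts, so no count test was run. Groups came from the sample titles. From log2(FPKM + 1), limma 3.58.1 in R 4.3.3, with an intensity trend, compared day 6 with day 3 over the 6 OCI-Ly7 libraries (3 residual degrees of freedom), with Benjamini-Hochberg adjustment over 11016 genes at 0.05. FPKM was used as deposited and after median-ratio scaling. A second limma fit over the 12 libraries compared the late steps of the lines. The fits were first tested on simulated data. Alternatives were an equal sum, a pseudocount of 0.1, filters, no trend, a replicate block and leaving out each library. The members and gene lists were chosen with earlier results of these data known. Genes were named by a rule: the 15 per direction with the largest change among calls with separate days, the 12 per direction with the largest change at 5 FPKM or more, the 4 of each list with the smallest p, the 5 per direction that differed most between lines, and fixed genes. Those of the rule that passed no test are mostly given as counts. The remaining calls as deposited, DNAJA1, HSPB1, HSPH1, HYPK, FBL, MS4A1, SLC30A1, SLC39A10, TM7SF2 and the motif matches were named after their values were seen. Promoters came from RefSeq (GRCh38.p14), and both strands were searched. No coordinates of the files' own build were used. Some genes of the lists are not reported here.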

Additional observations from a re-analysis of the deposited data

Results flagged for a closer look

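The results below had a late step (day 6 minus day 3, log2 of FPKM + 1) that differed between OCI-Ly7 and TMD8 by limma's test of the difference, with Benjamini-Hochberg adjustment. Values are OCI-Ly7 minus TMD8. The difference was 2.65 for MSL2 (2.47 in OCI-Ly7, -0.18 in TMD8, adjusted p = 0.000185), 2.14 for ID1 (1.50 and -0.63, adjusted p = 0.000309) and -3.43 for SLC16A1 (-2.84 and 0.59, adjusted p = 0.00653). These 3 passed in all 8 fits that left out 1 library of day 3 or day 6, as deposited. The difference was 2.24 for PCSK1N (adjusted p = 0.0239) and 1.80 for FAM173A (adjusted p = 0.0298), and each passed in 4 of the 8 such fits. Both calls were lost without the second OCI-Ly7 day 3 library, either TMD8 day 3 library or the second TMD8 day 6 library. PCSK1N ran from 1.6 to 2.88 (adjusted p up to 0.0823) and FAM173A from 1.3 to 2.31 (adjusted p up to 0.0865).

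Of the fixed genes, it was -0.906 for PRMT5 (adjusted p = 0.0113) and -0.54 for WDR77 (adjusted p = 0.0451), with the PRMT5 call kept in all 8 such fits and the WDR77 call in 2 (adjusted p up to 0.138). It was 1.11 for ID3 (adjusted p = 0.0118), 0.751 for TCF3 (adjusted p = 0.0264), 0.801 for BCL2 (adjusted p = 0.00956), 0.82 for MT2A (adjusted p = 0.0203) and 0.809 for EBI3 (adjusted p = 0.0265). It was -0.605 for CCND3 (adjusted p = 0.0248), -0.756 for BTK (adjusted p = 0.0158) and -1.11 for PSAT1 (adjusted p = 0.00597). ID3, BCL2 and PSAT1 passed in all 8 such fits. BTK passed in 7 (adjusted p up to 0.0631, without the second TMD8 day 3 library), MT2A in 5 (up to 0.0768), CCND3 in 4 (up to 0.0768), TCF3 in 3 (up to 0.0864) and EBI3 in 2 (up to 0.0948). Each of these 5 was lost without the second TMD8 day 3 library and, apart from BTK, also without the first.

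In 5 further rows a day of one line was listed at 0 or near it in 1 or both libraries. CD99 (6.68, adjusted p = 0.0335) had 20.8 and 18.5 FPKM at day 6 and 31.3 FPKM and a listed 0 at day 3 in OCI-Ly7, and in TMD8 it was listed at 0 in both day 6 libraries and had 26.5 and 28.0 FPKM at day 3. SNORA34 (-6.98, adjusted p = 0.0178) was listed at 0 in both day 6 libraries and 1 day 3 library of OCI-Ly7 and in both day 3 libraries of TMD8. EIF4A1 (-6.25, adjusted p = 0.0484) was listed at 0 in 1 day 6 library of OCI-Ly7. As deposited, CD99 passed in 2 of the 8 fits (4.17 to 9.19), SNORA34 in 5 (-9.08 to -4.89), EIF4A1 in 2 (-8.91 to -3.59), OVCA2 in 0 (adjusted p 0.0509 to 0.109) and MIR6516 in 8. OVCA2 (-4.85, adjusted p = 0.0381) was listed at 0 in both day 6 libraries of OCI-Ly7, against 15.1 and 23.6 FPKM at day 3. MIR6516 (-5.37, adjusted p = 0.00456) had 14.9 and 21.6 FPKM at day 6 and 13.8 and 28.8 FPKM at day 3 in OCI-Ly7, with overlapping libraries, and 58.7 and 38.5 FPKM at day 6 and 0.304 and 0.301 FPKM at day 3 in TMD8.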

How the results depend on the processing

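The count of genes past limma's threshold between day 6 and day 3 of OCI-Ly7 was 24 as deposited, 964 after median-ratio scaling and 556 after scaling to an equal sum, where 29.5% of calls were higher, against 45.8% as deposited. The cause of the gap between scalings was not tested. Leaving out 1 library gave 27 to 48 genes as deposited, 48 being without the first day 3 library, and 21 to 51 after median-ratio scaling, 51 and 42 being without the first day 3 and the second day 6 library. A pseudocount of 0.1 gave 30 genes, 23 of them among the 24, and no trend gave 22, all 22 among them. No filter gave 22 with 15 in common, a mean of at least 5 FPKM 26 with 18, and days 3 and 6 alone 27 with 14. A like count thus did not mean the same genes. With the replicate number as a block the count was 20, with 17 genes in common, and with the block after scaling it was 12. Same-numbered libraries shared only a number: the correlations of their deviations between days were 0.13, -0.08 and 0.11 in OCI-Ly7 and -0.1, -0.15 and 0.08 in TMD8. The fits that joined scaling to the block or to leaving out a library were chosen after seeing the data. For the difference between the lines, 1435 genes passed as deposited, 2508 after median-ratio scaling, 1734 after an equal sum (63.3% higher, against 47.5%), 446 with days 3 and 6 alone, 1113 with the replicate block, 1094 with a mean of at least 5 FPKM (32.8% higher) and 295 to 1663 without 1 library. Of single genes, the direction turned without 1 library in 6. Without each library in turn, as deposited, the change of COPRS ran from -0.222 to 0.126 (0.124 in the scaled fit that turned), that of ID2 from -0.178 to 0.0282 (scaled 0.018), that of CDKN1A from -0.26 to 0.0479 (scaled 0.0467), that of MIR6516 up to 0.36 and 0.11 (scaled 0.46 and 0.15), that of CD99 from -0.65 to 4.37 (scaled -0.55) and that of SNORA34 from -4.19 to 0. The 2 libraries a day and an absolute depth that is not given in the sources used here limit the precision.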
